A study of Homo sapiens with 10 samples.

Results

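Cadherins are calcium-dependent adhesion proteins that join neighbouring cells, and EPCAM is an adhesion protein of epithelial cells with an unrelated structure. The genes described here were 8 cadherins (CDH1, CDH2, CDH3, CDH4, CDH11, CDH13, CDH17 and CDH24) and EPCAM, taken by name, which made 9 of the 58884 genes in each count table. RNA-seq was made from the human colorectal carcinoma line HCT116 and from DNMT1 KO cells, which derive from it and in which exons of DNMT1, the maintenance DNA methyltransferase, were deleted. Because some truncated DNMT1 remains, the study calls these cells hypomorphic rather than null. They are 1 derived line, so the effect of the line and the effect of the genotype cannot be told apart. Both lines were grown in the same serum-containing medium without any further treatment. There were 6 HCT116 libraries (replicates 1, 2, 3, 7, 8 and 9) and 4 DNMT1 KO libraries (replicates 1 to 4).

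In an epithelium, the extracellular parts of classical cadherins bind each other across the junction while their tails bind beta-catenin and p120-catenin, which tie them to actin through alpha-catenin. CDH1 (E-cadherin) is the main cadherin of colon epithelium, CDH3 (P-cadherin) is a close relative, and CDH2 (N-cadherin) and CDH11 are typical of mesenchymal cells. CDH17 is an intestinal cadherin, CDH13 lacks a transmembrane tail and is anchored by lipid, and CDH4 (R-cadherin) and CDH24 are a classical and a type II cadherin. CpG methylation at promoters is associated with silencing, and the comparison asks how the level of these transcripts differed once DNMT1 was reduced.

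The libraries held between 35418732 and 85991812 assigned counts in HCT116 cells and between 26700853 and 55732013 in DNMT1 KO cells. Values below are CPM, which sets each count against its library's total after TMM scaling. DNMT1 itself was 153 ± 64.2 CPM in HCT116 cells (SD, n = 6) and 19.5 ± 3.68 CPM in DNMT1 KO cells (SD, n = 4), without overlap. The labels place the libraries in 4 batches. Batch 1 holds replicate 1 of each line, batch 2 holds replicates 2 and 3 of each line, batch 3 holds DNMT1 KO replicate 4, and batch 4 holds HCT116 replicates 7, 8 and 9. A gene was called where edgeR's quasi-likelihood test gave an adjusted p under 0.05 over all genes tested and the log2 fold change exceeded 1 in size.

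CDH1, CDH3 and EPCAM were lower in DNMT1 KO cells, by 12.8-fold, 9.76-fold and 4.22-fold, and for each of them the highest DNMT1 KO library lay below the lowest HCT116 library. Of the 9 genes, 5 passed the filter on low counts (CDH1, CDH3, CDH17, CDH24 and EPCAM), and 3 of these were called lower and 0 higher. Among all 19279 genes tested, 6.49% were called lower and 7.42% higher. The share of tested genes whose DNMT1 KO libraries all lay below every HCT116 library was 6.79%. The tested members had a median log2 fold change of -2.08, against -0.07 over all genes tested. CDH2, CDH4, CDH11 and CDH13 had too few counts to pass the filter and are described below from their counts.

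**Figure D1:**
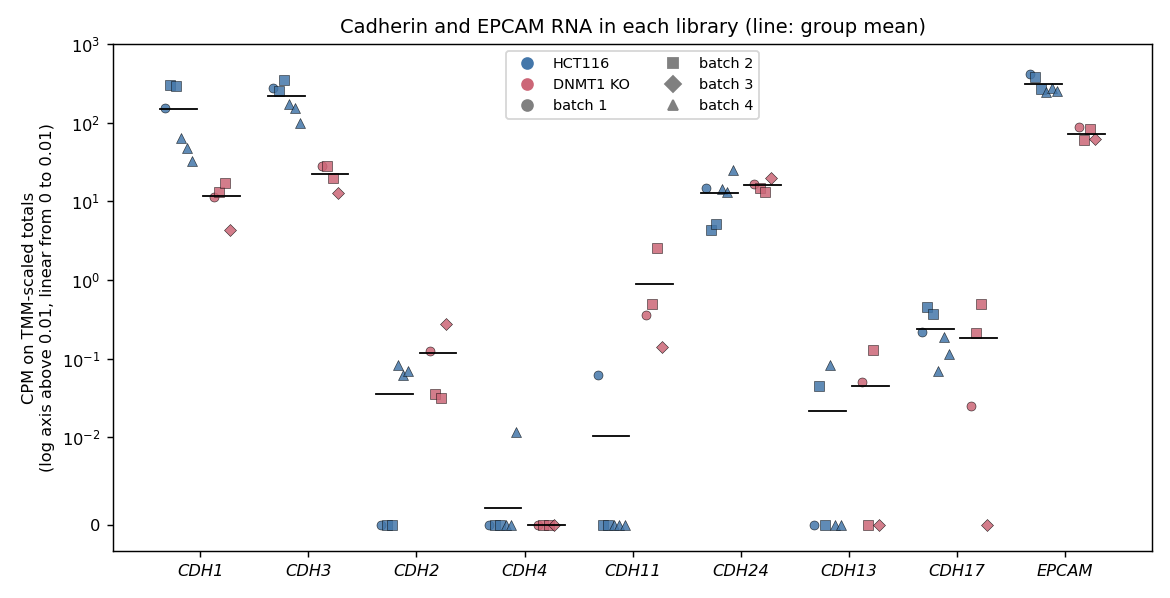
Level of each gene in every library, in CPM on an axis that is logarithmic above 0.01 and linear below, with HCT116 in blue, DNMT1 KO in red, batches by symbol and group means as lines. CDH1, CDH3 and EPCAM show 2 separate ranges, CDH24 shows 1 shared range, and CDH2, CDH4, CDH11, CDH13 and CDH17 lie under 1 CPM except CDH11 in DNMT1 KO replicate 3 at 2.54 CPM.

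CDH1 (ENSG00000039068, chr16:68737292-68835537, plus strand, hg38) had a lowest level of 32.4, a median of 109 and a highest of 298 CPM over the 6 HCT116 libraries. In DNMT1 KO replicates 1 to 4 it stood at 11.3, 13.3, 17.2 and 4.38 CPM. The groups did not overlap. The fit put the log2 difference at -3.67 (SE 0.68, edgeR adjusted p = 0.00138). The exact two-sided permutation p on log2 CPM was 0.00952, where the smallest p that 6 against 4 libraries allow is 0.00476.

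HCT116 cells themselves differed in CDH1 by batch. Batch 4 had 48.1 ± 15.9 CPM (SD, n = 3) and batches 1 and 2 together had 247 ± 80.3 CPM (SD, n = 3), a log2 difference of -2.38 (SE 0.38, edgeR adjusted p = 0.00423). CDH1 was the 1 member called between these HCT116 batches, and it was lower in batch 4, as were 4.94% of 18656 genes. Within batch 1 the log2 ratio of DNMT1 KO to HCT116 was -3.78 (1 library of each line, no test), and within batch 2 it was -4.27 (2 of each). With batch as a term over batches 1 and 2 DNMT1 KO stood at -4.10 on the log2 scale (SE 0.27, edgeR adjusted p = 4.65e-05), where 6.98% of genes were called lower. Against the 3 HCT116 libraries of batch 4 alone it was -2.02 (SE 0.36, edgeR adjusted p = 0.000587), a fit in which 8.64% of genes were called lower.

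CDH3 (ENSG00000062038, chr16:68636189-68727468, plus strand) had a lowest level of 99.5, a median of 213 and a highest of 347 CPM in HCT116 cells. The 4 DNMT1 KO libraries had 28.4, 28.1, 19.8 and 12.6 CPM in the order of their numbers. All 4 lay below every HCT116 library, with a fitted log2 difference of -3.29 (SE 0.39, edgeR adjusted p = 2.89e-05). The exact permutation test gave p = 0.00476, the smallest it can give. HCT116 batch 4 had 142 ± 37.8 CPM of CDH3 against 292 ± 48.5 in batches 1 and 2 (SD, n = 3 each), and this difference was not called (log2 -1.07, SE 0.33, edgeR adjusted p = 0.0614). The DNMT1 KO difference within batch 1 was -3.28 on the log2 scale and within batch 2 it was -3.65.

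EPCAM (ENSG00000119888, chr2:47345158-47387601, plus strand) varied the least of the 3 members called, relative to its mean. Its HCT116 libraries had a lowest level of 245, a median of 273 and a highest of 415 CPM, and the DNMT1 KO libraries had 88.3, 59.4, 81.9 and 61.4 CPM. The ranges did not overlap, with a fitted log2 difference of -2.08 (SE 0.26, edgeR adjusted p = 3.98e-05). The exact permutation p was 0.00476. Within batch 1 the log2 ratio was -2.23 and within batch 2 it was -2.21, and between the HCT116 batches the difference was not called (log2 -0.48, SE 0.32, edgeR adjusted p = 0.363). In bulk RNA, fewer cells carrying a transcript and less of it per cell cannot be told apart, for EPCAM as for the cadherins.

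**Figure D2:**
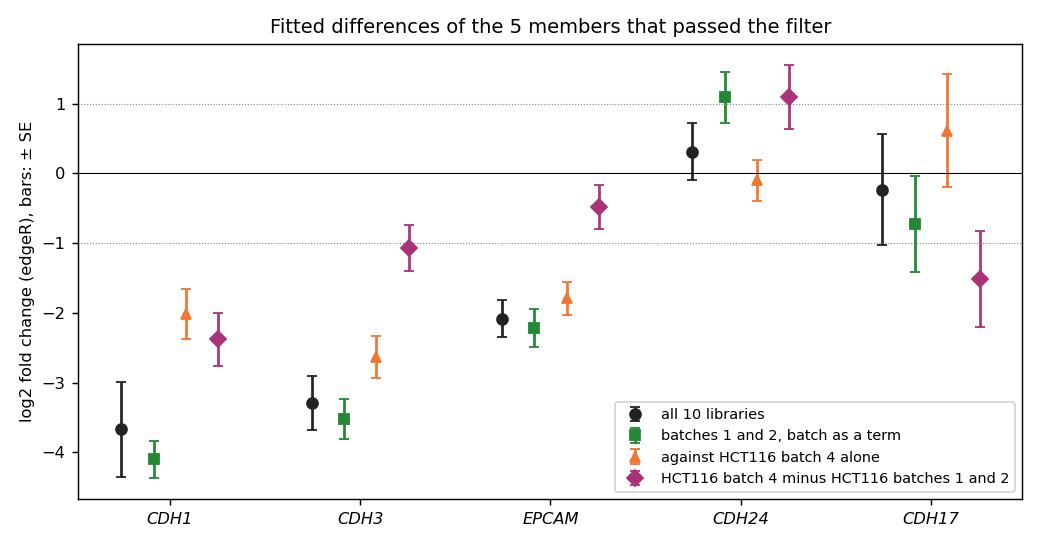
Log2 difference with its standard error for the 5 members tested, for DNMT1 KO against HCT116 over all libraries, over batches 1 and 2 and against HCT116 batch 4 alone, and for HCT116 batch 4 against HCT116 batches 1 and 2 (the CDH17 value against batch 4 alone, 0.61, is from the fit without a filter). CDH1, CDH3 and EPCAM lie below -1 in each DNMT1 KO comparison, at -3.67, -3.29 and -2.08 over all libraries, while CDH24 and CDH17 change sign with the control batch.

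CDH24 (ENSG00000139880, chr14:23047062-23057538, minus strand), a type II cadherin, was the other cadherin with a clear level in both lines, and it was not called. HCT116 replicates ranged from a lowest of 4.33 to a highest of 24.9 CPM. The DNMT1 KO libraries had 16.5, 14.8, 13.1 and 19.5 CPM, inside the HCT116 range. Its log2 difference came to 0.31 (SE 0.41, edgeR adjusted p = 0.671). HCT116 replicates 2 and 3 had 4.33 and 5.21 CPM, below every other library. Within batch 2, which holds those libraries, the log2 ratio was 1.55, within batch 1 it was 0.15, and with batch as a term over batches 1 and 2 it was 1.09 (SE 0.36, edgeR adjusted p = 0.0763). A term for batch over all libraries gave 1.08 (edgeR adjusted p = 0.0448), which is called, as were 8.42% of genes in the higher direction. Batches 3 and 4 hold 1 line each, so this difference also rests on batches 1 and 2. The fit against HCT116 batch 4 alone gave -0.10 (SE 0.29, edgeR adjusted p = 0.831).

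CDH17 (ENSG00000079112, chr8:94127162-94217303, minus strand) was close to the limit of detection. It had 7, 20, 14, 5, 12 and 10 counts in HCT116 replicates 1, 2, 3, 7, 8 and 9 and 1, 12, 31 and 0 counts in the DNMT1 KO replicates. The group means were 0.236 ± 0.149 CPM (SD, n = 6) and 0.183 ± 0.227 CPM (SD, n = 4), and the ranges overlapped. Its log2 difference came to -0.23 (SE 0.80, edgeR adjusted p = 0.887).

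CDH11 (ENSG00000140937, chr16:64943753-65126112, minus strand) was counted mainly in DNMT1 KO cells. HCT116 replicate 1 had 2 counts and the other 5 HCT116 libraries had 0, while the DNMT1 KO libraries had 14, 28, 160 and 4 counts, or 0.354, 0.498, 2.54 and 0.139 CPM. All 4 lay above every HCT116 library, as did 6.11% of all genes with a count. The summed counts, 206 against 2, gave a ratio of 185 after scaling for depth (95% exact interval 50.5 to 1535, counting error only). DNMT1 KO replicate 3 held 160 of the 206 counts, and without it 46 against 2 counts gave a ratio of 62.1 (16.2 to 528). CDH11 failed the filter on low counts. In the fit without a filter, where 5.58% of 35231 genes were called higher, it was called (edgeR adjusted p = 2.87e-06), and without DNMT1 KO replicate 3 that adjusted p was 0.000582. These values do not compare with those of the filtered fit, as the edgeR adjusted p of CDH1 was 1.29e-06 without the filter and 0.00138 with it. With batch as a term over batches 1 and 2, CDH11 passed the filter and was called at an edgeR adjusted p of 0.0192, as were 1377 of 18681 genes in the higher direction.

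The remaining cadherins gave a few counts in either line. CDH2 (ENSG00000170558, chr18:27932879-28177946, minus strand) had 16 counts over the HCT116 libraries, all in batch 4, and 17 over the DNMT1 KO libraries, where replicates 1 to 4 had 5, 2, 2 and 8. The ratio of DNMT1 KO to HCT116 was 1.91 (95% exact interval 0.905 to 4.03, counting error only), and the edgeR adjusted p without a filter was 0.424. In batches 1 and 2, which hold both lines, HCT116 replicates 1, 2 and 3 had 0 counts against the 5, 2 and 2 above, and with batch as a term the edgeR adjusted p was 0.391 without a filter. CDH13 (ENSG00000140945, chr16:82626965-83800640, plus strand) had 8 counts in HCT116 cells and 10 in DNMT1 KO cells, with a ratio of 2.24 (0.797 to 6.54) and an edgeR adjusted p of 0.677 without a filter. CDH4 (ENSG00000179242, chr20:61252261-61940617, plus strand) had 1 count, in HCT116 replicate 9, and 0 in the DNMT1 KO libraries, which allows up to 0.016 CPM over that group. A difference in CDH4 was not detectable at this depth.

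The promoter of CDH2 is shown beside that of CDH7, a type II cadherin outside the 9 genes, because both lie on chromosome 18 and the lines differed in counts of CDH7 but not detectably in those of CDH2. CDH7 was chosen after its values were seen. It had 0 counts in the 6 HCT116 libraries and 199 in the DNMT1 KO libraries, at 1.10 ± 0.246 CPM (SD, n = 4), at least 123-fold higher against the 3-count floor over the HCT116 group (edgeR adjusted p = 2.80e-05). The 250 bases before the RefSeq start are printed 5′ to 3′ on the gene's strand (GRCh38.p14), with each CG dinucleotide, the site that DNMT1 maintains, in capitals. The CDH2 stretch is chr18:28177131-28177380, minus strand, and holds 17 CG. The CDH7 stretch is chr18:65750002-65750251, plus strand, and holds 6.
CDH2: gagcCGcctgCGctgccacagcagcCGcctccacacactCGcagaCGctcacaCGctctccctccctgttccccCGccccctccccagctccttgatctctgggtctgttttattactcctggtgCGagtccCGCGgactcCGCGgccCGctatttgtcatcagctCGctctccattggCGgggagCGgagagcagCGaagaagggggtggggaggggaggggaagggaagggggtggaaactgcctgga
CDH7: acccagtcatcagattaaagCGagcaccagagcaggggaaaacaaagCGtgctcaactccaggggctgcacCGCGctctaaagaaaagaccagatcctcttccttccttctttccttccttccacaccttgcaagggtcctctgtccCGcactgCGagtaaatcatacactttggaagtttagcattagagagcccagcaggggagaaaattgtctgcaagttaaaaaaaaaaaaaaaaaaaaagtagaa
Over the full 300-base windows the observed-to-expected CpG ratio was 0.687 for CDH2 and 0.449 for CDH7, above 56.9% and 43.5% of the 35116 promoter windows in the table. Each gene has a second listed start, whose window had a ratio of 0.323 for CDH2 and 0.893 for CDH7. The 250 bases before that start held 4 CG for CDH2 and 33 for CDH7, the reverse of the order printed above. Which start these cells use was not examined. The E-box letters CAGGTG, or CACCTG on the other strand, which repressors of CDH1 bind, were in none of these 4 windows and in 1 of the 2 windows of CDH4, and they occur in 20.6% of all windows. Methylation at these bases was not analysed here.

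Levels were compared between genes per kilobase of the length given in the tables. In HCT116 cells EPCAM had 122 ± 28.9 CPM per kb, CDH3 35.7 ± 15.0, CDH1 24.2 ± 19.8 and CDH24 3.42 ± 2.01 (SD, n = 6). EPCAM stood above CDH3 in every library (97.3 to 165 against 16.4 to 57.1), whereas the ranges of CDH3 and CDH1 overlapped. In DNMT1 KO cells the order of means was EPCAM at 28.9 ± 5.77, CDH24 at 4.26 ± 0.73, CDH3 at 3.66 ± 1.25 and CDH1 at 1.89 ± 0.879 CPM per kb (SD, n = 4). The ranges of CDH24 and CDH3 overlapped (3.48 to 5.2 against 2.08 to 4.68), as did those of CDH3 and CDH1. The other 5 cadherins had means under 0.1 CPM per kb in both lines.

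The summed level of the 8 cadherins was 63.4 ± 32.0 CPM per kb in HCT116 cells (28.4 to 106) and 9.96 ± 1.35 in DNMT1 KO cells (8.07 to 11.0). CDH3 made 58.9 ± 8.57% of that sum in HCT116 cells and 35.9 ± 8.19% in DNMT1 KO cells, and CDH1 made 32.7 ± 13.8% and 18.6 ± 8.09%. CDH24 made 8.31 ± 8.23% in HCT116 cells (1.26 to 23.4%) and 44.0 ± 13.8% in DNMT1 KO cells (35.2 to 64.5%), while its own level was not called different. CDH3 exceeded CDH1 in every library except HCT116 replicate 2, where CDH1 made 53.1% and CDH3 45.5%. In DNMT1 KO replicates 3 and 4 CDH24 held the largest share, and in replicates 1 and 2 CDH3 did. This order depends on the scaling by length. On plain counts CDH3 was ahead in replicate 3 (37.2% against 24.6% for CDH24), and CDH24 stayed ahead in replicate 4 (52.8% against 34.2%). The DNMT1 KO means were then 42.7% for CDH3 and 33.1% for CDH24. No test was run on these shares.

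**Figure D3:**
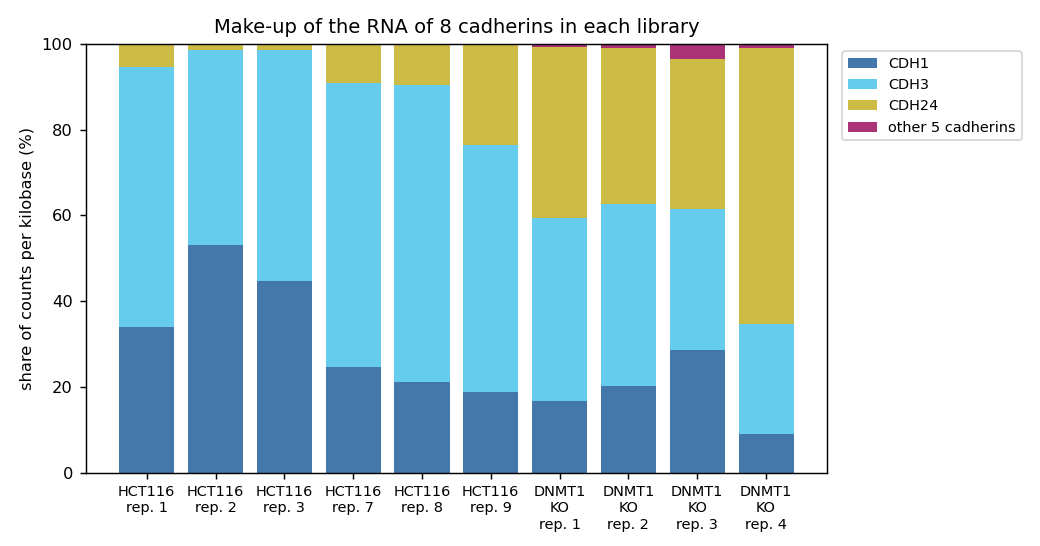
Share of each cadherin, in percent of the summed per-kilobase level of the 8 cadherins, as stacked bars for the 6 HCT116 and 4 DNMT1 KO libraries. CDH1 and CDH3 fill most of each HCT116 bar, and CDH24 fills between 35.2 and 64.5% of each DNMT1 KO bar.

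CDH3 and CDH1 are neighbours in the same orientation, with 9824 bases between them, and both were lower. The protein-coding genes on either side of the pair were not called. ZFP90, a zinc finger gene 60117 bases before CDH3, had 46.6 ± 14.0 CPM in HCT116 cells (SD, n = 6) and 56.8 ± 8.19 in DNMT1 KO cells (SD, n = 4; edgeR adjusted p = 0.497). TANGO6, 7994 bases after CDH1, had 23.3 ± 4.63 and 26.9 ± 2.99 CPM (edgeR adjusted p = 0.595). CALM2, a calmodulin gene 168237 bases before EPCAM, was not called either (565 ± 304 and 337 ± 81.7 CPM, edgeR adjusted p = 0.249). Exons of CDH1, CDH2, CDH3 and CDH13 overlap a long non-coding gene on the opposite strand, and no strand setting is named for the counting. Those of CDH11 overlap a gene on the same strand, where a strand setting would not separate the reads. How reads in these overlaps were assigned was not examined.

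Among the other classical and type II cadherins, 3 of 14 listed genes were tested, and 1, CDH7, was higher and 0 lower. The number higher was 2 without DNMT1 KO replicate 3, with no filter or with DESeq2, 3 against HCT116 batch 4 alone, and 0 with at least 10 counts in every library. CDH5 (VE-cadherin), the endothelial cadherin, failed the filter with 4 counts in HCT116 cells and 70 in DNMT1 KO cells, a ratio of 31.4 (95% exact interval 11.7 to 118, counting error only), and was called in the fit without a filter (edgeR adjusted p = 0.000313). CDH5 is the nearest protein-coding gene on one side of CDH11, but 1240578 bases away. CDH8, the nearest on the other side at 2906718 bases, had 0 counts in both lines. Of 18 atypical and giant cadherins, 11 were tested, 1 was higher (3 against HCT116 batch 4 alone) and 0 lower. That gene was FAT4, a giant cadherin, at 2.20 ± 0.74 CPM in HCT116 cells (SD, n = 6) and 11.3 ± 2.05 in DNMT1 KO cells (SD, n = 4), a log2 fold change of 2.37 (SE 0.31, edgeR adjusted p = 6.27e-05). The median log2 fold changes were 0.58 over the first list and 0.21 over the second, against -0.07 over all genes. Of all genes tested, 7.42% were called higher, and against HCT116 batch 4 alone 2454 of 19877 were.

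The catenins bind cadherin tails and link the junction to actin. Of 18 catenin and adherens junction genes, 15 were tested, 2 were lower and 0 higher, with a median log2 fold change of -0.50. The share called lower over all genes tested was 6.49%. LIMA1, an actin-binding partner of alpha-catenin, fell from 203 ± 44.8 to 31.9 ± 11.0 CPM (log2 -2.67, SE 0.30, edgeR adjusted p = 1.48e-05). NECTIN4, a nectin adhesion receptor, was called at 2.05 ± 1.41 against 0.471 ± 0.302 CPM, with overlapping ranges (edgeR adjusted p = 0.0261). The central catenins were not called. CTNNB1 (beta-catenin) had a log2 fold change of 0.58 (edgeR adjusted p = 0.0997), CTNNA1 (alpha-catenin) -0.55 (0.263) and CTNND1 (p120-catenin) -0.22 (0.699). JUP (plakoglobin) had -1.10 with an edgeR adjusted p of 0.0559. With batch as a term over batches 1 and 2, 4 genes of the list were lower, JUP among them (log2 -1.38, edgeR adjusted p = 0.00593), as was ARVCF, a relative of p120-catenin (-1.22 against -0.92 over all libraries, edgeR adjusted p = 0.0137). In that fit 6.98% of genes were called lower. Leaving out HCT116 replicate 8 also gave 4, and leaving out DNMT1 KO replicate 1, 2 or 4 gave 1. Over all genes, 1183 were called lower without HCT116 replicate 8, against 1251 with all libraries. Without DNMT1 KO replicates 1, 2 and 4 the numbers were 987, 990 and 1022.

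Of 16 transcription factor genes known to act on CDH1, 12 were tested. Of these, 2 were higher and 3 lower, against 7.42% and 6.49% of all genes tested. Both increases were in repressors of CDH1. ZEB1 rose from 5.61 ± 2.82 CPM in HCT116 cells (SD, n = 6) to 43.5 ± 14.3 in DNMT1 KO cells (SD, n = 4; log2 2.95, SE 0.38, edgeR adjusted p = 6.34e-05), and SNAI2 rose from 0.563 ± 0.491 to 8.45 ± 2.23 CPM (log2 3.93, SE 0.51, edgeR adjusted p = 6.42e-05). Another repressor, TWIST1, went the other way, from 2.58 ± 0.303 CPM to 0 counts in all 4 DNMT1 KO libraries, at least 161-fold lower (edgeR adjusted p = 1.30e-06). GRHL2, an activator of CDH1 in epithelia, fell from 37.3 ± 16.0 to 0.469 ± 0.351 CPM (log2 -6.25, SE 0.58, edgeR adjusted p = 2.58e-06). The third gene called lower was OVOL1, from 15.7 ± 6.63 to 2.78 ± 0.498 CPM (log2 -2.49, SE 0.35, edgeR adjusted p = 0.000132). SNAI1 was not called (log2 0.16, edgeR adjusted p = 0.745). The median over the list was 0.18.

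Of 15 proteases and ligases that cut or degrade cadherins or EPCAM, all 15 were tested. Of these, 3 were lower and 0 higher, with a median log2 fold change of -0.24, where 6.49% of all genes tested were lower. ST14 (matriptase), a membrane serine protease, fell from 151 ± 30.6 to 27.6 ± 5.63 CPM (log2 -2.45, SE 0.25, edgeR adjusted p = 7.20e-06). ADAM15, a membrane metalloprotease, fell from 147 ± 34.3 to 61.8 ± 11.1 CPM (edgeR adjusted p = 0.00197), and MMP7 fell from 0.797 ± 0.413 CPM to 0 counts, at least 49.9-fold lower (edgeR adjusted p = 0.000115). ADAM10, the main sheddase of CDH1, was not called (log2 -0.25, edgeR adjusted p = 0.588).

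The genes listed with EPCAM, not all of which bind it, were mostly lower. Of 7 listed genes 6 were tested, 5 were lower and 0 higher, with a median log2 fold change of -1.92. Over all genes tested, 6.49% were lower. CD44, a hyaluronan receptor found in complexes with EPCAM, fell from 853 ± 363 to 90.0 ± 19.2 CPM (log2 -3.24, SE 0.35, edgeR adjusted p = 1.22e-05). FHL2, a LIM-domain protein that binds the EPCAM tail, fell from 114 ± 51.9 to 16.4 ± 8.15 CPM (log2 -2.80, SE 0.41, edgeR adjusted p = 0.000190). The other genes called were CLDN7, SPINT1 and SPINT2, with log2 fold changes between -2.20 and -1.24. Between HCT116 batches, CLDN7, FHL2 and SPINT2 were also called lower in batch 4 than in batches 1 and 2. Their log2 differences were -1.28, -1.26 and -1.26 (edgeR adjusted p = 0.037, 0.0207 and 0.0226). CD44 and SPINT1 were not called there (log2 -0.97 and -0.85, edgeR adjusted p = 0.0969 and 0.14). Of all genes, 4.94% were called lower in batch 4. Against HCT116 batch 4 alone, 3 genes of the list were called lower, as were 8.64% of all genes tested. CD9, a tetraspanin, was not called (log2 0.10, edgeR adjusted p = 0.836).

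**Figure D4:**
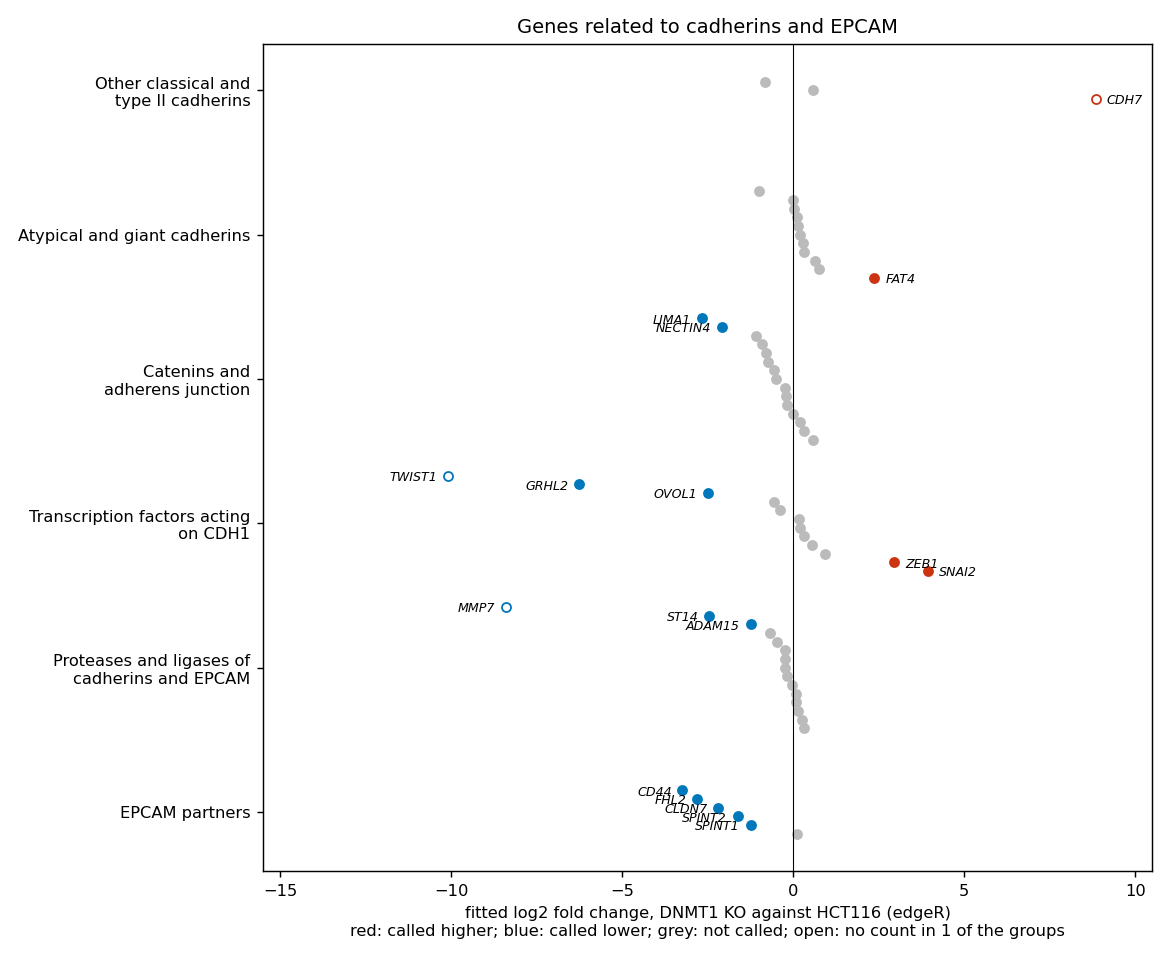
Log2 fold change of DNMT1 KO against HCT116 for each tested gene of the 6 related lists, with genes called higher in red, lower in blue, not called in grey and those with no count in 1 line as open points. The genes of the EPCAM list lie mostly below 0, with 5 of 6 called lower, while the catenin list has 2 of 15 called.

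Marker lists moved in the same comparison, in which 7.42% of all genes tested were called higher and 6.49% lower. Of 8 colon epithelial markers 6 were tested, 3 were lower (KRT8, KRT18 and ELF3) and 1 higher (VIL1), and their summed level was 2264 to 5688 CPM in HCT116 cells and 546 to 1331 in DNMT1 KO cells. KRT20 was at 0 counts in every library and CDX2, an intestinal transcription factor, was not called (18.0 to 41.4 CPM in HCT116 cells, edgeR adjusted p = 0.601). KRT19 was not called either (log2 -1.06, edgeR adjusted p = 0.0763). With batch as a term over batches 1 and 2, where 6.98% of genes were called lower, KRT19 was called lower (log2 -1.6, edgeR adjusted p = 0.0184). Of 11 fibroblast and mesenchymal markers 6 were tested, 4 were higher and 0 lower, and their sum was 12.5 to 22.7 CPM against 580 to 947, most of it VIM (3.25 ± 1.86 to 759 ± 195 CPM). The other 3 called were LUM (2 counts in HCT116 cells and 365 in DNMT1 KO cells), COL3A1 (6 and 773 counts) and PDGFRB (log2 3.96). COL1A1 and ACTA2 were not called, with log2 fold changes of -0.90 and -1.47 (edgeR adjusted p = 0.183 and 0.0801), and with batch as a term over batches 1 and 2 ACTA2 was called lower (log2 -1.92, edgeR adjusted p = 0.0148). Of the 5 markers that failed the filter, DCN had 0 counts in HCT116 cells and 21 in DNMT1 KO cells, COL1A2 0 and 12, PDGFRA 4 and 21, THY1 15 and 12, and FAP 0 and 1. Of 6 endothelial markers 4 were tested and 2 were higher (sums 0.372 to 2.17 and 4.32 to 6.06 CPM), and of 6 leukocyte markers 1 was tested and was higher (0.125 to 0.909 and 1.92 to 2.77 CPM). Their part in the cadherin and EPCAM results was not tested.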

How the data were processed

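Poly(A) RNA of independent cultures was sequenced as stranded, 50-base paired-end libraries. The authors trimmed reads with Trim Galore 0.4.1, aligned them to hg38 with Bowtie2, kept mapping quality of at least 10 with SAMtools and deposited raw counts per gene from featureCounts. The annotation release is not given in the sources used here. Bowtie2 does not split reads over introns, so reads across junctions can be lost. Low counts were mostly even in 9 libraries (64.4 to 70.0% of genes with 1 to 10 counts) but not in DNMT1 KO replicate 4 (39.9%), so a pair may count as more than 1, and exact intervals, which cover counting error only, may then be too narrow. Groups came from the sample labels, and 3 further tables with no listed sample were not used.

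The deposited counts were analysed with edgeR 4.0.16 under R 4.3.3 (TMM, filterByExpr, glmQLFit, group as the sole term, two-sided) over all genes, with Benjamini-Hochberg adjustment. Members that failed the filter were read from the fit without it. The exact permutation test used log2 of CPM plus 0.5. The floor was 3 counts over a group. Alternatives were RLE factors, library totals, halved counts where low counts were mostly even, no filter, at least 10 counts in every library, DESeq2 1.42.0, batch terms, single batches and each replicate left out. The scripts were tested on simulated data. All 9 members were named. From each list, every called gene was named where there were 4 or fewer, and otherwise the largest 2 each way. Genes named beyond that rule (CDH7's promoter, CDH5, CDH8, the central catenins, JUP, ARVCF, SNAI1, OVOL1, ADAM10, CD9, CLDN7, SPINT1, SPINT2 and the markers) were chosen after their values were seen. The members and lists were chosen with earlier results of these data known. Promoter windows are from RefSeq (GRCh38.p14), where 2 of the 9 members had one. Replicates 1 to 3 of both lines share batch labels by number, and the numbers were checked for pairing. Results for 2 genes are not reported here, and list counts leave them out.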

Additional observations from a re-analysis of the deposited data

Results flagged for a closer look

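CDH11 in DNMT1 KO replicate 3 stood far from the other libraries of its line. It had 2.54 CPM (160 counts) there and 0.139 to 0.498 CPM in the other 3, a gap of 0.851 of the whole range. This was 1 of 15 groups of values examined, and the limit used, Dixon's 95% critical value, is passed by chance in about 1 in 20 groups of normally distributed values, which counts this low need not be.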

How the results depend on the processing

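CDH1, CDH3 and EPCAM were called lower, and no other member was, in every alternative that gives calls. Leaving out 1 replicate at a time moved their log2 fold changes from -3.93 to -3.34, from -3.43 to -3.07 and from -2.17 to -1.95, and the other settings gave -4.26 to -2.02, -3.64 to -2.63 and -2.22 to -1.79. Members called higher were 0 in the fit reported. They were 1, CDH11, with no filter, with DESeq2, with batch as a term over batches 1 and 2, in batch 2 alone, with the replicate block, in replicates 1 to 3 with no block and against HCT116 batch 4 alone, and 0 to 1 with a replicate left out (1 without DNMT1 KO replicate 4). With batch as a term over all libraries it was 1, CDH24 at 1.08 (edgeR adjusted p = 0.0448), a difference that rests on batches 1 and 2. Against HCT116 batch 4 alone, an alternative chosen after seeing the data like the fit with no block, CDH24 was -0.0996. CDH17 turned to 0.0955 without HCT116 replicate 2, to 0.0807 without DNMT1 KO replicate 1 and to 0.110 without DNMT1 KO replicate 4, within a left-out range of -1.32 to 0.110. CDH13 turned to -0.422 without DNMT1 KO replicate 3, in a range of -0.422 to 2.12. CDH2, at 1.38 and not called in any setting, gave 0.601 (without DNMT1 KO replicate 4) to 1.75 with a replicate left out and 0.191 to 4.64 in the other settings. The causes were not tested.

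Over all genes, 1431 were called higher and 1251 lower. At least 10 counts in every library gave 734 and 766, batch 2 alone 815 and 798, and HCT116 batch 4 alone 2454 higher, while leaving out replicates gave 1214 to 1587 and 987 to 1250. Between the HCT116 batches, 1 member was called, 2 with library totals or DESeq2, and 1 to 3 with a replicate left out (3 without HCT116 replicate 1). All genes called there were 1498, 2505 with DESeq2 and 234 to 3570 with a replicate left out (3570, 345, 848, 424, 490 and 234 without HCT116 replicates 1, 2, 3, 7, 8 and 9). CDH4, with 1 count in all, was not followed across settings, and with at least 10 counts in every library CDH2, CDH11, CDH13 and CDH17 gave no value.

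The deviations of same-numbered libraries correlated at 0.463, -0.199 and 0.375 for replicates 1, 2 and 3, so the numbers were not taken as pairs, and not every library correlated best with its own number. The replicate block over replicates 1 to 3 called 1232 genes higher and 1235 lower, against 1171 and 1147 with no block. At these depths CDH2, CDH4 and CDH13 allow no statement beyond their counting intervals, and replicates measure the spread between cultures of 2 lines.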
